A study of Mus musculus with 12 samples.

Results

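Most of the genes examined here encode developmental transcription factors, the DNA-binding proteins that lay out body axes, organs and cell types in the embryo. Their methylation was followed in the livers of male mice through the regions that the authors called differentially methylated and deposited as lists, each entry of which names the gene with the nearest transcription start site (TSS). An entry belonged to the set when its gene symbol began with Hox, Pax, Sox, Fox, Gata, Tbx, Lhx, Nkx, the start shared by Six2 and Six3, Irx, Dlx, Msx, Pou, Zic, Otx, Meis, Pitx, Emx, Evx, Gsx, Isl, Nr2f, Sim, Sall, Satb, Onecut, Tfap2, Neurog, Neurod, Olig or Gli, followed by an optional letter and a digit. The rule reads symbols only, so it also took in some noncoding transcripts named after such genes. With 31 families searched, it gave 49 of 1711 regions at 40 gene symbols: 46 of 1547 regions in tumors, 3 of 57 in non-tumor liver and 0 of 107 in normal liver.

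The libraries were reduced-representation bisulfite sequencing (RRBS) of liver DNA, an assay that reads CpG methylation in fragments cut by MspI, whose site is CCGG. Each list sets the arsenite line (AA) against the control line (CC) of C3H/HeN mice, with 3 samples a group: AAN against CCN for normal liver, AATn against CCTn for non-tumor liver and AATt against CCTt for tumors. The mice of the arsenite line were F2 males descended from an F1 generation exposed to arsenite in the womb, and males of C3H strains are prone to liver tumors. The samples of AAN, AATn, AATt and CCTn were 74 weeks old, and those of CCN and CCTt came from an earlier deposit and were not analysed here as samples. In the normal and tumor lists, line and deposit therefore cannot be told apart. Only the non-tumor list compares groups that are both in this series. Separate mice are not stated for the samples within a group, and the tissue labels could not be checked against marker genes in DNA methylation lists. Each deposited value is the difference of a whole comparison in percentage points (points below), so no value per sample, replicate error or read depth stands behind it here. Positive values were taken to mean more methylation in the arsenite line than in the control line, a convention stated by no source used here. If the sign ran the other way in the tumor list, 30.4% of the 46 tumor regions would be positive in place of 69.6%.

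In vertebrate cells, the CpG-rich starts of such genes are mostly unmethylated, and in tissues that do not use the factor they are kept silent by Polycomb proteins. These CpG-rich stretches are known to gain methylation in many cancers. Distal enhancers of these genes can lie far from the start, often across gene-poor sequence or inside a neighbouring gene. Adult hepatocytes depend on only a few members, such as the Foxa factors and Onecut1, while Gata4 is known from liver sinusoidal endothelium and Tbx3 from the growth of the embryonic liver bud.

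None of the 49 regions overlapped a RefSeq promoter window, which covers 250 bases before and 50 bases after a gene start (GRCm38.p6, the assembly of mm10). The same count was not made over all 1711 listed regions, so it is not a trait shown for these genes. Within 1 kb of a TSS lay only 4.65% of all regions in the tumor list. Windows were matched for 24 of the 40 symbols. For 22 protein-coding genes with a listed region the window held a median of 26 CpGs (1 to 39). The median was 19 over 168 windows of protein-coding family genes and 13 over 17492 windows of protein-coding genes. The motif CCGG, the same on both strands and containing a CpG, was present in 20 of the 22 windows (90.9%), in 78.6% of the family windows and in 61.4% of all. A match is a description of the reference sequence, and RRBS coverage of the windows was not known here. The windows of Foxi2 and Pax8 are shown because these genes had the outermost differences of each sign, and that of Gli3 because its region was the closest of those upstream of a start. They were selected after their values were seen. Capitals mark CpGs, 5' to 3' on the strand of the gene.

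Foxi2, chr7:135410117-135410416 (plus strand): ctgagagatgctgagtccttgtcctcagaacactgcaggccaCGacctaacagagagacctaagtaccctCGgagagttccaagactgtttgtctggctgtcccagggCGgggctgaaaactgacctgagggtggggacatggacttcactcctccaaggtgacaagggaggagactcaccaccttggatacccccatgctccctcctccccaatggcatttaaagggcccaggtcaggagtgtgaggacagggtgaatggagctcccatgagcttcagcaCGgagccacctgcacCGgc

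Pax8, chr2:24475550-24475849 (minus strand): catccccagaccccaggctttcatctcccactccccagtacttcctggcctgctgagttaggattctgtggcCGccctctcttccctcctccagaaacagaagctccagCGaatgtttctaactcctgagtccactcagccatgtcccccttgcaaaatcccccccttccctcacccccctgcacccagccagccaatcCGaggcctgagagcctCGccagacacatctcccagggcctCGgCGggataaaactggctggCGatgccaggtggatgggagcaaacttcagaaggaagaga

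Gli3, chr13:15463473-15463772 (plus strand): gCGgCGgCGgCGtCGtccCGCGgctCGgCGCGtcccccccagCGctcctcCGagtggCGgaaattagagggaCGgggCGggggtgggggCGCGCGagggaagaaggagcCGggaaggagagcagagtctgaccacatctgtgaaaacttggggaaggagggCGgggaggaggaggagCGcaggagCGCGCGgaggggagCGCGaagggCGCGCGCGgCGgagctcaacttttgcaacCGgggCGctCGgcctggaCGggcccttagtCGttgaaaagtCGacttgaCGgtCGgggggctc

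The Foxi2 window held 5 CpGs and its listed region began 1425 bp beyond the window, inside the gene. The Pax8 window held 7 CpGs and no CCGG, and its nearer region lay 1750 bp further into the gene. The Gli3 window held 39 CpGs, the most of all windows matched to listed genes, and its region lay 1378 bp further upstream. The window of Sall2, another gene with a region under 2 kb from its start, held 1 CpG.

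In tumors the members were positive more often than negative, with 32 positive and 14 negative regions. This positive share of 69.6% (exact 95% Clopper-Pearson interval 54.2% to 82.3%, counting error only) stood beside 68.7% of all 1547 regions in the tumor list. The split of the members was therefore near that of the list. Positive member regions had a median of 22.4 points and negative ones a median of -22.2 points, against 22.9 and -23.1 points in the whole list. At least 25 points were reached by 8 of the 46 regions (17.4%), 7 of them positive, against 29.0% of the list. In bulk liver DNA, a methylation change within a cell type and a change in the mix of cell types cannot be told apart. With 1 deposited value per comparison, no difference below carries a test.

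**Figure D1:**
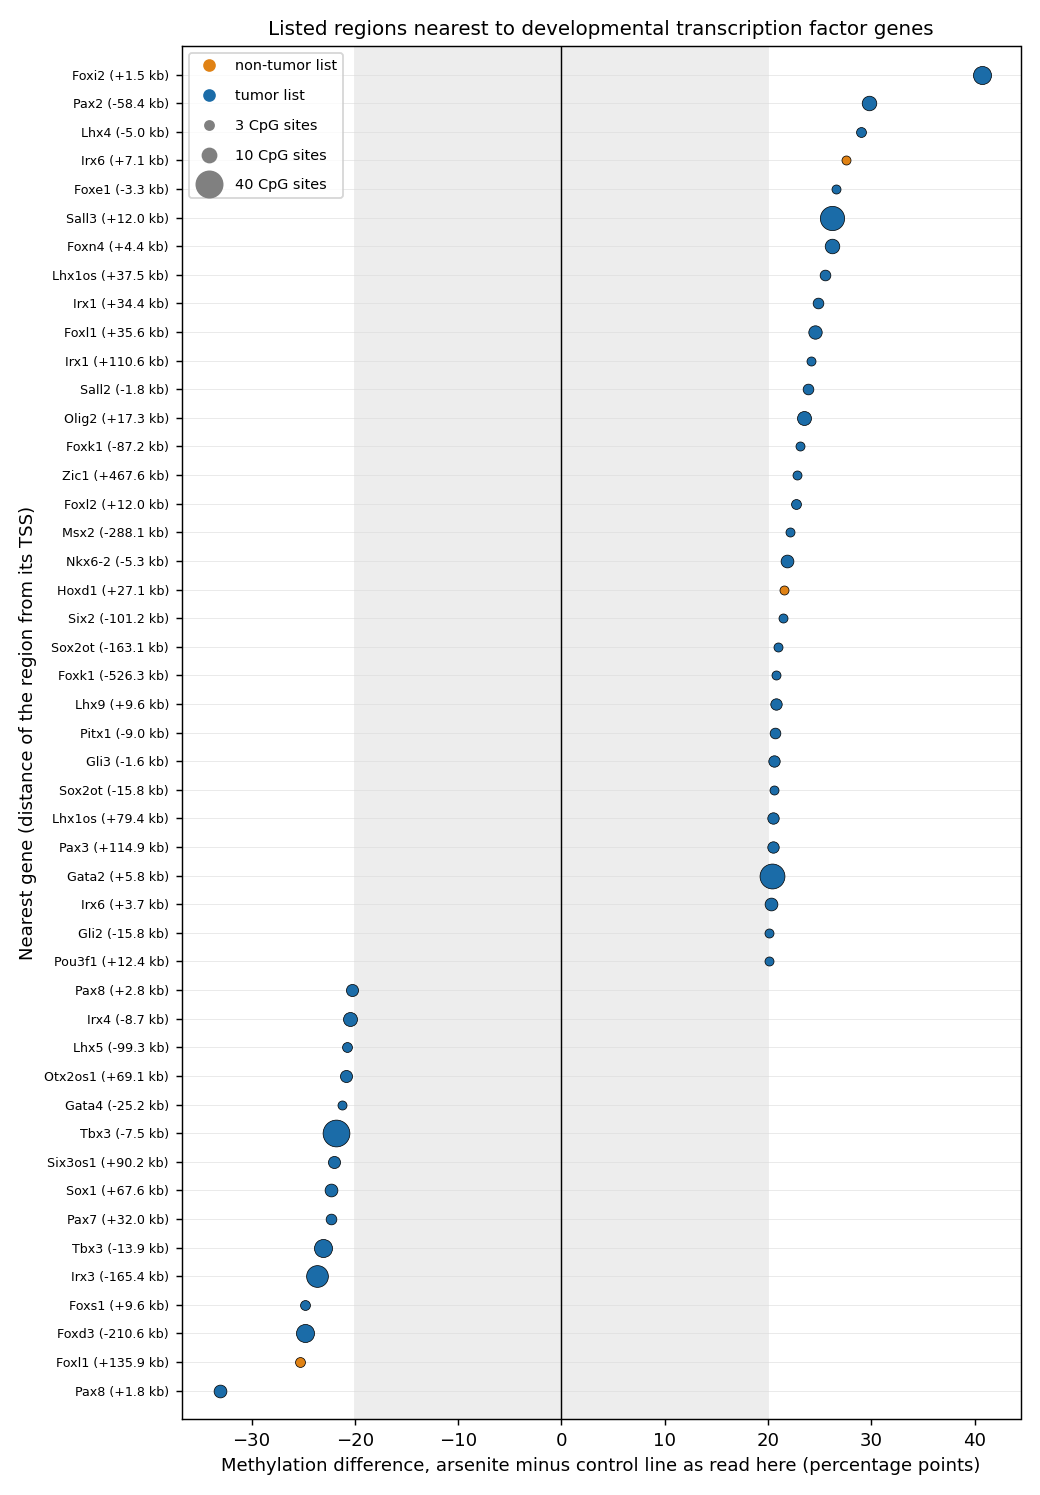
Each member region described here is drawn as a point at its methylation difference in percentage points (horizontal axis), with the nearest gene and the distance to its TSS on the vertical axis, coloured by list and sized by its number of CpG sites. The grey band from -20 to 20 points holds no listed region, Foxi2 stands apart at 40.7 points and Pax8 at -33.1 points, and most others lie between 20 and 27 points in size.

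The tumor regions belonged to 39 symbols, 35 of them protein-coding genes. That is 14.2% of the 246 protein-coding genes of these families in RefSeq, while 4.82% of 21900 protein-coding genes were named in the tumor list by their current symbol. The genes that RRBS could cover are not known here, so these shares describe the list only. Of the 31 families, 17 had a tumor region. The homeobox and paired box families together had 14 positive and 8 negative tumor regions, the forkhead genes 7 and 2, the zinc finger families (Gata, Zic, Sall and Gli) 8 and 1, Sox 2 and 1, Tbx 0 and 2, and Olig 1 and 0. Hox proteins set position along the body axis. The 43 Hox entries of RefSeq, 39 of them protein-coding, had 0 tumor regions. Dlx, Meis, Emx, Evx, Gsx, Isl, Satb, Onecut, Nr2f, Sim, Neurog and Neurod had 0 regions in any list. The rule could take in no Tfap2 gene, since those symbols end in a letter with no digit after it. Absence from a list does not show that methylation was equal there. Differences under 20 points were not listed, and every listed region had at least 3 CpG sites and 1 DMC. Genes without RRBS coverage could not be listed at all.

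Paired box factors direct kidney, thyroid, muscle and neural crest formation. Pax8, needed for thyroid follicular cells and the kidney, had a pair of negative regions inside the gene in the authors' deposited table for tumors. The nearer one (chromosome 2, 24473701 to 24473799, 1800 bp downstream of the TSS) had a difference of -33.1 points with 7 of 8 CpG sites called differentially methylated (DMCs). The farther one (24472314 to 24472759) had -20.3 points with 1 DMC among 7 sites, and a gap of 941 bp separated them. The lead Pax8 region was the only negative member beyond 25 points in tumors. Pax2, a kidney and optic nerve factor, was positive in the same table at 29.7 points, with 9 of 11 sites DMCs, but 58402 bp upstream of its TSS and outside any gene span (chromosome 19, 44698794 to 44698992). The muscle and neural crest factors Pax3 and Pax7 had 20.5 points (114870 bp downstream of the TSS, outside the gene) and -22.3 points (inside the gene), each resting on 1 DMC. Pax regions in tumors were thus 2 positive and 3 negative.

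LIM homeobox factors specify motor neurons, pituitary and gonad. In the authors' deposited table for tumors, Lhx4, a pituitary and motor neuron factor, was positive at 29.0 points with 3 of 4 sites DMCs (chromosome 1, 155747040 to 155747100). That region lay 5014 bp upstream of the listed TSS and still inside the RefSeq span of Lhx4, which extends farther upstream. Lhx9, needed for gonad formation, had 20.7 points with 1 DMC among 6 sites, inside the gene and 9572 bp downstream of its TSS (chromosome 1, 138832798 to 138832872). Lhx1os, a noncoding transcript beside the head organizer gene Lhx1, had positive regions of 25.5 and 20.5 points at 37476 and 79390 bp downstream of its TSS, outside any gene span. They spanned chromosome 11, 84563135 to 84563235 (2 of 5 sites DMCs) and 84605049 to 84605954 (2 of 6). Lhx5, a forebrain factor, was negative at -20.8 points, with 1 DMC among 4 sites 99324 bp upstream.

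Iroquois factors pattern heart, retina and neural tissue and stand in a cluster on chromosome 13 and another on chromosome 8. On chromosome 13, both Irx1 regions were positive in the authors' deposited table for tumors, at 24.9 and 24.2 points, 34421 and 110579 bp downstream of the TSS and outside any gene span. The first spanned 71929212 to 71929302 with 3 of 5 sites DMCs, and the second 71852801 to 71853144 with 1 of 3. In the same cluster Irx4, a factor of heart ventricle muscle, was negative at -20.5 points with 3 DMCs among 10 sites, 8714 bp upstream of its TSS (73251652 to 73251783). On chromosome 8, the region assigned to Irx3 was negative at -23.6 points over 526 bp, with 13 of 27 sites DMCs, 165431 bp upstream of the TSS (91967084 to 91967609). Irx6, known from retinal bipolar cells in the mouse, was positive at 20.3 points with 2 DMCs among 8 sites, inside the gene and 3747 bp downstream of its TSS (92678035 to 92678239). Each cluster thus held regions of both signs.

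Among the other homeobox genes, positive values ran from 20.1 to 22.1 points in the authors' deposited table for tumors. Nkx6-2, a factor of neurons and oligodendrocytes, had 21.9 points with 3 DMCs among 8 sites, 5277 bp upstream and inside the noncoding transcript Gm33031 (chromosome 7, 139588073 to 139588247). Pitx1, which specifies the hindlimb, had 20.7 points with 3 DMCs among 5 sites, 8998 bp upstream (chromosome 13, 55840422 to 55840465). Six2, which maintains nephron progenitors, had 21.4 points, Msx2, a skull and limb factor, had 22.1 points, and Pou3f1, a Schwann cell factor, had 20.1 points. Each of these last 3 rested on 1 DMC among 3 sites, 12425 to 288079 bp from the TSS. The noncoding transcripts Six3os1 and Otx2os1, which lie beside the forebrain genes Six3 and Otx2, were negative at -22.0 and -20.8 points, with 3 and 2 DMCs among 7 sites each.

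Forkhead factors, some of which open chromatin, direct development of gut, liver, ectoderm and gonad. The region of Foxi2, a member of the Foxi group, had the largest difference of all 49, 40.7 points in the authors' deposited table for tumors. It spanned chromosome 7, 135411842 to 135411960, inside the gene and 1476 bp downstream of the TSS, with 14 of 18 sites DMCs. Foxe1, a thyroid factor, had 26.6 points, but with 1 DMC among 3 sites, 3293 bp upstream and inside the noncoding transcript Gm12446 (chromosome 4, 46340641 to 46340901). Foxn4, which acts in retinal and spinal cord progenitors, had 26.2 points with 6 of 11 sites DMCs inside the gene, 4364 bp downstream of its TSS (chromosome 5, 114269209 to 114269397). Foxl1, a factor of gut mesenchyme that also marks progenitor cells in injured mouse liver, had 24.5 points with 4 of 9 sites DMCs, 35565 bp downstream (chromosome 8, 121163249 to 121163529). Foxl2, an ovary and pituitary factor, had 22.7 points with 2 of 4 sites DMCs. Both regions nearest to Foxk1, a forkhead repressor of muscle progenitors, were positive in that table at 23.1 and 20.8 points with 1 DMC among 3 sites each (chromosome 5, 142314163 to 142314250 and 141875115 to 141875165). They lay 87247 and 526332 bp upstream, the farther one inside the adhesion gene Sdk1. The negative forkhead regions were at Foxd3, a neural crest and pluripotency factor (-24.9 points, 7 of 18 sites DMCs, 210571 bp upstream), and at Foxs1, expressed around blood vessels (-24.8 points, 2 of 4 sites DMCs, 9635 bp downstream of its TSS). They spanned chromosome 4, 99445517 to 99445728, and chromosome 2, 152923522 to 152923573, outside any gene span.

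Zinc finger families were positive at 8 of 9 tumor regions, a share not tested against the 68.7% of the list. Sall3, a spalt factor of limb and neural development, had the most DMCs of all members in the authors' deposited table for tumors. Its region of 774 bp inside the gene (chromosome 18, 80973850 to 80974623) had 26.2 points with 22 of 34 sites DMCs, 11955 bp downstream of the TSS. Sall2 of the same family had 23.9 points with 2 of 5 sites DMCs, 1764 bp upstream of its TSS (chromosome 14, 52330433 to 52330625). Gata2, which maintains blood stem cells, had 20.4 points with 10 of 36 sites DMCs, inside the gene and 5803 bp downstream of its TSS (chromosome 6, 88204466 to 88204947). The effectors of Hedgehog signalling Gli3 and Gli2 had 20.6 points (2 of 6 sites DMCs, 1629 bp upstream) and 20.1 points (1 of 3 sites, 15844 bp upstream). The Gli3 region (chromosome 13, 15461922 to 15462094) lay inside the noncoding transcript Gm6556. Zic1, a cerebellar factor, had 22.8 points with 1 of 3 sites DMCs, 467640 bp downstream of its TSS. The negative zinc finger region was that of Gata4, at -21.2 points with 1 DMC among 3 sites. It lay 25175 bp upstream of the listed TSS yet inside the RefSeq span of the gene (chromosome 14, 63270434 to 63270561).

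The T-box gene Tbx3 held the member region with the most CpG sites, and both of its regions had differences below 0. In the authors' deposited table for tumors, one region (chromosome 5, 119662567 to 119663390, 7472 bp upstream of the TSS) had -21.8 points with 13 of 42 sites DMCs. The other (119656461 to 119657002, 13860 bp upstream) had -23.1 points with 7 of 18 sites DMCs, and a gap of 5564 bp lay between them. Both lay inside the noncoding transcript Tbx3os1 and outside Tbx3. Sox1, a factor of neural progenitors, was negative at -22.3 points with 2 of 8 sites DMCs, 67552 bp downstream of its TSS. Sox2ot, the transcript that spans the pluripotency gene Sox2, had 21.0 and 20.6 points at 163057 and 15777 bp upstream of its listed TSS (chromosome 3, 34397320 to 34397324 and 34544498 to 34544604), each with 1 DMC among 3 sites. Olig2, which specifies motor neurons and oligodendrocytes, was positive at 23.5 points with 5 of 10 sites DMCs, 17330 bp downstream of its TSS.

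A list of 23 factors known from liver development or hepatocyte identity had 5 tumor regions at 3 genes, 2 positive and 3 negative. The negative ones were the Gata4 region, which rested on 1 DMC, and both Tbx3 regions given above, with a gap of 5564 bp. In the whole tumor list, 68.7% of regions were positive, and the difference was not tested. By nearest gene, Foxa1, Foxa2, Foxa3, Onecut1, Onecut2, Hnf4a, Cebpa, Prox1, Hhex, Sox9, Gata6 and Nr2f2 had 0 regions in every list. Only 4.82% of all protein-coding genes were named in the tumor list, so absence was the usual case. RRBS coverage of these genes was not known here, and their absence was not tested.

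Member regions in tumors differed in their distance from the start. None lay within 1 kb of the TSS, against 72 of the 1547 listed regions (4.65%), and the closest lay at 1476 bp. Within 10 kb lay 16 of 46 (34.8%), against 24.6% of the list. Of these, 11 of 16 member regions were positive, beside 227 of 381 in the list (59.6%). Beyond 100 kb lay 11 of 46 (23.9%), against 23.8% of the list, with 9 of 11 positive beside 296 of 368 in the list (80.4%). The median distance was 21252.5 bp for members and 32379 bp for the list. By position, 12 member regions lay inside the span of the gene they were listed for, 8 only inside another gene or transcript and 26 outside any gene span. In the whole list, 33.2% lay inside the listed gene, 21.8% only inside another and 44.9% outside any. Of the 26 member regions outside, 20 were positive (76.9%), beside 72.8% of such regions in the list. Of the 12 inside their own gene, 7 were positive (58.3%), beside 65.4% in the list. None of these differences from the list was tested.

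**Figure D2:**
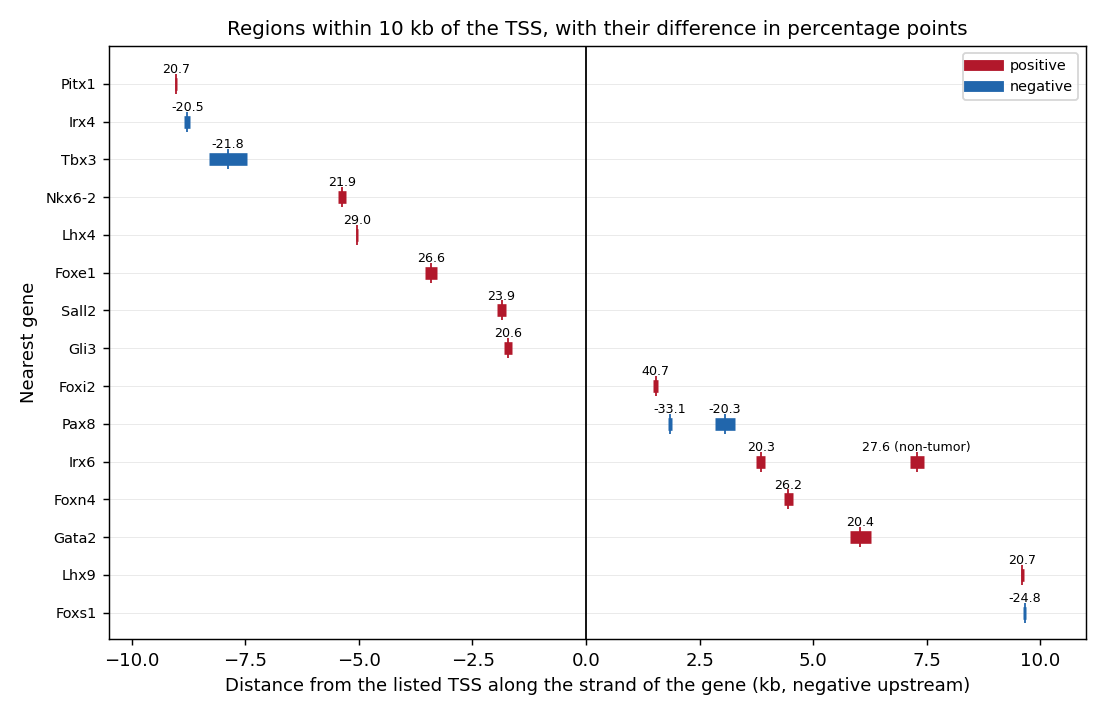
The 17 regions within 10 kb of a listed TSS (16 from the tumor list and 1 from the non-tumor list) are drawn to scale along the strand of the gene in kb, negative upstream, red for positive and blue for negative differences, with the difference in percentage points above each. No bar touches the start at 0, Foxi2, Gli3, Sall2 and Pax8 lie nearest to it, and the Tbx3 bar of 824 bp is the widest.

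**Figure D3:**
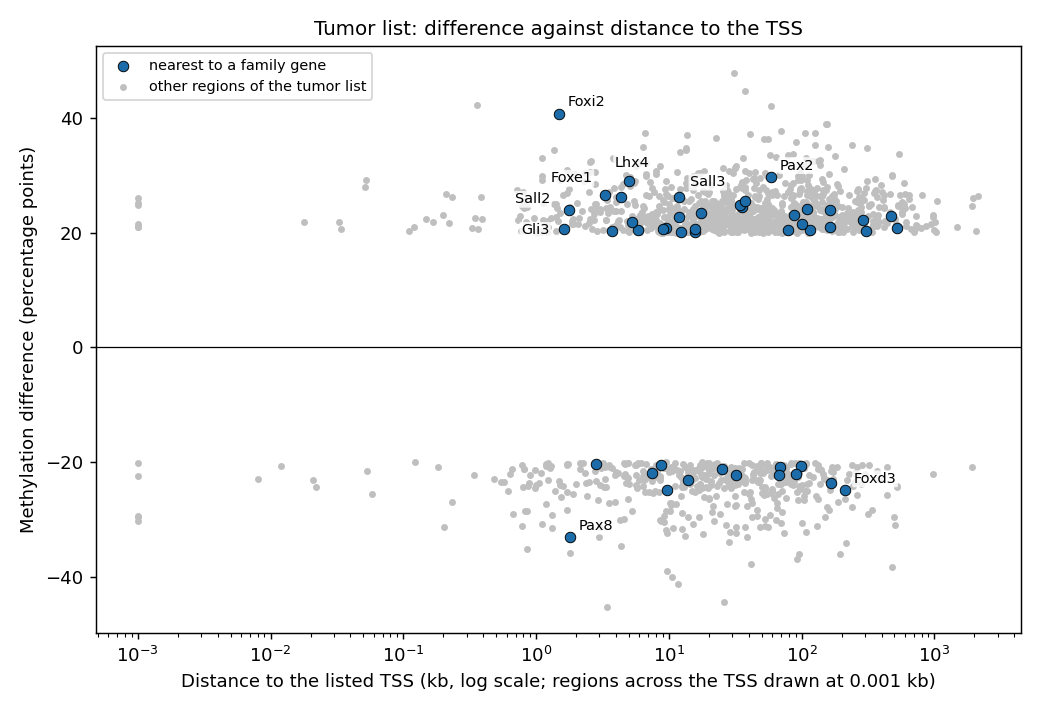
Methylation difference in percentage points against the distance to the listed TSS in kb on a log scale, for the 46 member regions of the tumor list (blue) and the other 1501 regions (grey). Members lie from 1476 to 526332 bp and, apart from Foxi2, Pax2, Lhx4 and the lead Pax8 region, within 27 points of 0.

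The number of CpG sites behind a difference varied widely. Member regions in tumors held a median of 5.5 CpG sites (3 to 42) and 2 DMCs, against 4 sites and 2 DMCs in the whole list. A normal liver region of 4 bp held 3 sites, more than a single strand of that length can hold, so sites were counted on each strand there. In tumors, 3 sites may likewise stand for fewer CpG pairs. At least 10 sites were present in 11 of 46 member regions (23.9%), against 13.1% of the list. These were at both Tbx3 regions and at Gata2, Sall3, Irx3, Foxi2, Foxd3, Pax2, Foxn4, Irx4 and Olig2, 6 positive and 5 negative. In the whole list, 99 regions of this kind were positive and 104 negative. Of the 12 member regions with 3 sites, 11 were positive, against 75.0% of such regions in the list. A single DMC supported 18 of 46 member regions (39.1%), against 35.6% of the list, and 14 of these 18 were positive. The median was 7.5 sites among negative and 5 among positive member regions, against 5 and 4 in the whole list.

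**Figure D4:**
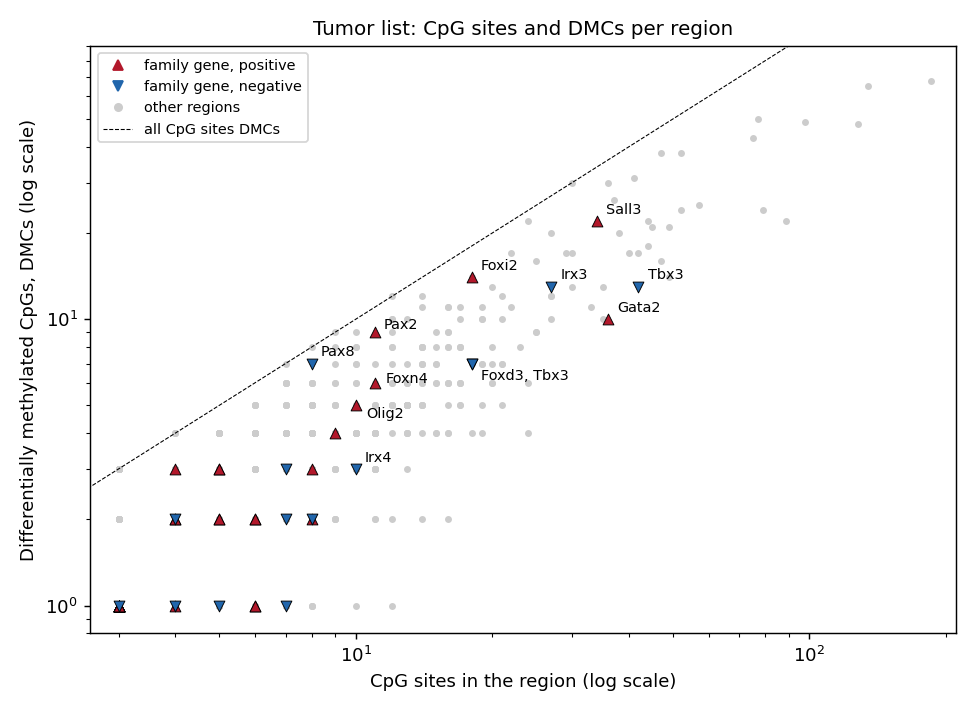
Number of DMCs against number of CpG sites per region in the tumor list, both on log scales, with positive members as red and negative members as blue triangles, other regions in grey and a dashed line where all sites are DMCs. Regions with equal counts lie on top of each other, Pax8, Pax2 and Foxi2 lie close to the line, and Tbx3 and Gata2 lie far below it with 13 of 42 and 10 of 36 sites.

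In the tumor list, 7 member genes had 2 regions, both positive in 5 (among them Foxk1, Irx1, Lhx1os and Sox2ot) and both negative in 2 (Pax8 and Tbx3). Over the whole tumor list, 93 of 147 genes with 2 regions had both of the same sign (63.3%), and the difference was not tested. Among these named genes, the gaps between paired regions ran from 941 bp in Pax8 to 438997 bp near Foxk1. Regions close to each other can share reads, fragments and tissue, so they are not independent. Within 100 kb, 9 of 46 member regions (19.6%) had another listed tumor region, against 24.5% of the list. The nearest such neighbour had the same sign for all 9, beside 59.1% of those in the list. Of these 9, 8 were the paired regions of Pax8, Tbx3, Irx1 and Lhx1os, each pair counted from both sides, and the other was the Foxn4 region beside one listed for Kctd10 (23.4 points, 91131 bp away).

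In non-tumor liver, 3 of 57 listed regions were members (5.26%, exact 95% Clopper-Pearson interval 1.1% to 14.6%), 2 positive and 1 negative, against 59.6% positive in the list. Each rested on 1 DMC among 3 or 4 sites in the authors' deposited table for non-tumor liver. Irx6 had 27.6 points (chromosome 8, 92681413 to 92681724), 7125 bp downstream of its TSS and outside the gene. Hoxd1, the most anterior gene of the Hoxd cluster, had 21.6 points (chromosome 2, 74790095 to 74790210), 27116 bp downstream and outside any gene. Foxl1 had -25.3 points (chromosome 8, 121263594 to 121263630), 135910 bp downstream and inside the noncoding transcript Gm33823.

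Irx6 and Foxl1 were listed in both non-tumor liver and tumors, at separate positions. The Irx6 regions were 3173 bp apart and positive in both lists, at 20.3 points in tumors and 27.6 points in non-tumor liver. The Foxl1 regions were 100064 bp apart, with 24.5 points in tumors and -25.3 points in non-tumor liver, as the authors' deposited tables give them. Whether the tissues differ at these genes was not tested, because neither position was in both lists. No member region overlapped a region of another tissue list by 1 bp or more, whatever gene it was listed for. The overlap between lists was not counted over all regions, and the non-tumor and normal lists held only 57 and 107. The absence of overlap is therefore not a trait shown for these genes.

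In normal liver, 0 of 107 regions were members, which allows a share of up to 2.80% (3 counts of the total) or 3.39% (exact Clopper-Pearson upper bound), for counting error alone. The tumor share of 2.97% (exact 95% Clopper-Pearson interval 2.19% to 3.95%) has an interval that spans both limits, and whether the shares differ between tissues was not tested. The closest normal liver region to any tumor member lay 125617 bp away.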

How the data were processed

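DNA of liver samples was profiled by RRBS, and the authors deposited 1 list of differentially methylated regions per tissue. The submitters' processing notes name the build mm10 and the tools Bismark, Trim Galore, bedtools 2.25.0 and methylKit. Which of them called regions, with what coverage minimum and threshold, is not given in the sources used here. Per the file headers, each entry gives a methylation difference in percentage points, region length, numbers of CpG sites and DMCs, and the nearest TSS with its distance. All 1711 regions had a difference of 20 points or more, with at least 3 CpG sites and 1 DMC, and length and distance matched the coordinates (1-based). Depth is unknown.

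Members were selected by symbol, and all 40 symbols were found among RefSeq genes of GRCm38.p6, which gave gene spans (no exons). The members and gene lists were chosen with earlier results of these data known. Named in full were regions within 10 kb of the TSS, the 5 outermost of each sign, genes with 2 regions, liver factors and genes in more than 1 list, and the others with their difference. Some genes that the rule names are not reported here. For shares over the whole tumor list, 1541 of 1547 listed genes matched RefSeq by symbol or synonym. Shares carry Clopper-Pearson intervals (SciPy 1.17.1), and no other test was made, because lists of called regions hold neither replicate values nor regions that were not called. Selection, span and overlap functions were tested on made-up data. Python 3.11.15, pandas 2.3.3 and matplotlib 3.10.9 were used.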

Additional observations from a re-analysis of the deposited data

How the results depend on the processing

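The deposited lists hold no values per sample, so leaving out a replicate could not be run. No paired analysis was possible because the lists give 1 value per comparison, and the numbers 5, 9 and 13 shared by AATn and AATt are not compared with each other. Of 38 alternative values, 7 could only return the 0 of normal liver or of shared positions and say nothing of stability. Of the other 31, 22 stayed within 1.5 times the count, or within the interval or spread of the value as listed, and 0 reversed. These 22 include non-tumor values under settings that removed none of the 3 regions (protein-coding genes, 1 region a gene, no sex chromosomes). Such values could not change and say nothing of stability. The interval of the non-tumor positive share ran from 9.43% to 99.2%, so nearly any share would lie within it. The 46 tumor regions became 28 with at least 2 DMCs, 8 with at least 25 points, 16 inside the span of a family gene and 16 within 10 kb of the TSS. The DMC, difference and distance settings keep fewer regions by construction, while the gene-span setting kept 14 of the 46 and added 2 listed for other genes. The positive share in tumors was 87.5% with at least 25 points and 56.25% to 70% under the other settings, against 69.6% as listed. The 3 non-tumor regions became 0 with at least 2 DMCs, 0 inside a family gene and 1 within 10 kb (100% positive). The unknown depth, the unknown sign convention and the missing regions under the authors' threshold limit every statement, and a call that rests on 1 DMC among 3 sites has the least data behind it. For tumors and normal liver, the control samples came from another deposit, so line and deposit cannot be told apart.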

Other observations

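Developmental transcription factor genes that the symbol rule did not take in were described from a separate list of 152 symbols. In tumors, 23 regions at 19 of these genes were listed, 17 positive and 6 negative, beside 32 and 14 for the families above. Over the whole tumor list, 68.7% of regions were positive and 4.82% of protein-coding genes were named. Differences from the list were not tested. The region with the most sites was at Mkx, a homeobox gene of tendon (chromosome 18, 7000746 to 7002342). The authors' deposited table gives it -25.8 points, with 49 of 98 sites DMCs inside the gene. Tshz3 (-21.5 points), Id4 (-25.01 points) and Lmx1a (-27.9 points) were negative as well, and Prdm13 had 1 region of each sign (27.4 and -29.9 points). On the positive side, both Ebf2 regions had 24.9 and 20.4 points, both Runx1 regions inside the gene had 24.1 and 21.6 points, and Bnc1 had 28.5 points at -4488 bp from its TSS (negative upstream). Tfap2c, a family member whose symbol ends in a letter and so falls outside the rule, had 22.8 points. Normal liver had 1 region of this list, at Nobox (-21.4 points), and non-tumor liver had 1, at Tbr1 (21.8 points), each with 1 DMC among 3 sites.

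Of 31 genes of the Polycomb complexes, Ezh1 alone had a listed region, in tumors. Over all protein-coding genes, 4.82% were named in the tumor list, and the difference was not tested. The Ezh1 region had -20.5 points with 1 DMC among 4 sites, at -8213 bp from its TSS and outside any gene span. Assigning regions by gene span in place of nearest start dropped 32 of the 46 tumor regions and added 2. A region listed for Dmrtb1 lay inside the Krüppel-like zinc finger gene Glis1 and was positive in the authors' deposited table (26.7 points, 6 of 10 sites DMCs). A region listed for Phf6 lay inside the pseudogene Pou5f1-rs8 on the X chromosome (31.5 points, 2 of 3 sites DMCs). The region nearest to the positive Foxl1 region in the tumor list was one for Fendrr, a noncoding transcript beside Foxf1, with 23.5 points 199501 bp away. The region nearest to Irx6 in tumors was one for the noncoding transcript Crnde, with 35.8 points 412139 bp away. That Crnde region was also the nearest to the Irx3 region, 298185 bp away and of the opposite sign (Irx3 -23.6 points).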
